A study of Mus musculus with 12 samples.

Results

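Potassium channel genes of the embryonic mouse cortex were taken by name, as every gene whose symbol begins with Kcn and does not end in os. That gave 97 of the 24411 genes in the deposited tables, whatever their level, in 21 subfamilies named by the letters after Kcn, with 3 noncoding RNAs among them (Kcnq1ot1, Kcnmb4os1 and Kcnmb4os2). RNA was sequenced from cortex microdissected from single embryos: 3 HARE5Hs/Hs embryos at E14.5 (E for embryonic day), 3 WT embryos at E14.5, 3 HARE5Hs/Hs embryos at E12.5 and 3 WT embryos at E12.5. HARE5Hs/Hs mice are knock-ins with the human version of HARE5, an enhancer of the Wnt receptor gene Fzd8, on both alleles, and WT mice have the mouse version. The labels give no litter or sex, so each p-value measures the spread between single embryos of a group. The comparisons ask how the levels of these genes differ between the ages and between the genotypes.

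Potassium channels let potassium ions leave the cell along their gradient, which sets the resting potential and ends action potentials. Voltage-gated families (Kcna, Kcnb, Kcnc, Kcnd, Kcnh and Kcnq) open on depolarisation, calcium- and sodium-activated families (Kcnma, Kcnn and Kcnt) open on ion entry, inward rectifiers (Kcnj) and tandem pore leak channels (Kcnk) act near rest, and auxiliary subunits (Kcnab, Kcnip, Kcne and Kcnmb) tune gating and traffic. Radial glia, the dividing progenitors of the cortex, are hyperpolarised cells, and young neurons gain voltage-gated currents as they leave the ventricular zone.

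Promoter sequence was looked up for the genes that moved together, since 27 Kcn genes were called higher at E14.5 in both genotypes, as described below. RefSeq windows of the GRCm38.p6 build, from 250 bases before to 50 bases after a transcript start, were at hand for 71 of the 97 genes (96 windows). The windows were searched on both strands for CAGATG (printed CATCTG where it lies on the other strand) and for CAGCTG, E-box sequences known as binding sites of neurogenic basic helix-loop-helix factors. Shown are a window with CAGCTG, a window with CAGATG, a window with both and a window with neither, all of genes higher at E14.5 in both genotypes, with the matches in capitals. They are Kcnd3 (chr3:105451640-105451939, plus strand), Kcnh5 (chr12:75177283-75177582, minus strand), Kcnip3 (chr2:127522045-127522344, minus strand, 1 of its 3 windows) and Kcnj10 (chr1:172340960-172341259, plus strand).
Kcnd3: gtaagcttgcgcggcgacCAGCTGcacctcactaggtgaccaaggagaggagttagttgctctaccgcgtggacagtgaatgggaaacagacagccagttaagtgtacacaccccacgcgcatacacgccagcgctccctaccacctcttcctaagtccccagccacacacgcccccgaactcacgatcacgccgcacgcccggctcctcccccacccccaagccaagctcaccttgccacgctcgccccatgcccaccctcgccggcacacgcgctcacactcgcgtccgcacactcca
Kcnh5: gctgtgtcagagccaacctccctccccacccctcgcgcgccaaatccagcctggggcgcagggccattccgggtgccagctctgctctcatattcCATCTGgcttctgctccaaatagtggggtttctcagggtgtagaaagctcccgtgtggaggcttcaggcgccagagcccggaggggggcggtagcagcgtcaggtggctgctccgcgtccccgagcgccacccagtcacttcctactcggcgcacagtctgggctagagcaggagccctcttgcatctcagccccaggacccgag
Kcnip3: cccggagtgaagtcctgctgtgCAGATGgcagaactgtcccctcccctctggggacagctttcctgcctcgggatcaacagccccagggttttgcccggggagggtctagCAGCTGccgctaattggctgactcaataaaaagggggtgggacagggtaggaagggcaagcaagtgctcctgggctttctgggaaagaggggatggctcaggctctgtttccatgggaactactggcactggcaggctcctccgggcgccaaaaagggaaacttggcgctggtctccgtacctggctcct
Kcnj10: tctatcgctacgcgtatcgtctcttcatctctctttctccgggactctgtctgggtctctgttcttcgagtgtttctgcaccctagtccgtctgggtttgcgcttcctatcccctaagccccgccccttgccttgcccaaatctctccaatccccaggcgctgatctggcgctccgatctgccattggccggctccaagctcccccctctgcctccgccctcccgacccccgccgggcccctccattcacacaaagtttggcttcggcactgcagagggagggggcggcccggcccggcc
Among the 27 genes, 17 had 25 windows, of which 32% held CAGATG and 28% held CAGCTG. Over all 32851 windows of the table the shares were 17.2% and 16.3%. Windows of the same genes were also rich in CG dinucleotides, with a median of 13 against 7 over all windows. The median was 9 over all Kcn windows and 10 over windows of Kcn genes that fell in either genotype. It was also 9 over windows of Kcn genes tested and called in neither. Of the 35 windows of Kcn genes that were tested and called in neither genotype, 11.4% held CAGATG and 25.7% held CAGCTG. Over all 96 Kcn windows the shares were 20.8% for CAGATG and 25% for CAGCTG. Both were 14.3% over the 7 windows of Kcn genes that fell in either genotype. TGACGTCA, GGGCGG and TATAAA were also counted. They were in 0%, 52% and 0% of the 25 windows, against 1.79%, 35.7% and 13.6% of all windows. Windows of 1 gene are not separate observations. These are matches of letters in a fixed window, given as a description.

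Levels of different genes are compared here in the deposited FPKM, which divides by transcript length, and changes of a gene are log2 fold changes of counts with their standard error (SE). Each adjusted p comes from the quasi-likelihood test of edgeR, adjusted by Benjamini-Hochberg across the 14311 genes that passed a filter on low counts, and "rose" and "fell" are kept for an adjusted p under 0.05. Of the 97 Kcn genes, 73 passed that filter, and the median and counts below are over these 73. Total counts per library ran from 11593202 to 17670103, with 5927 to 15781 counts on Kcn genes, and 75 to 85 of the 97 had a count in a given library. E14.5 HARE5Hs/Hs embryo 3 stood apart from the rest on the first and second principal components (98.2 and −56.1), with the smallest total and 14537 detected genes. Of the 73 tested Kcn genes, 32 (43.8%) had their highest scaled level of the 12 libraries in that embryo, against 18.9% of all tested genes. Markers of embryonic cortex were present: summed levels of 9 radial glia markers were 2455 to 2713 CPM (counts scaled to library size) at E14.5 and 2810 to 3273 CPM at E12.5. Sums of 12 neuron markers were 4651, 6202 and 6747 CPM in E14.5 HARE5Hs/Hs, 4965, 4249 and 3800 CPM in E14.5 WT, 2573, 1409 and 1617 CPM in E12.5 HARE5Hs/Hs and 1610, 1512 and 1594 CPM in E12.5 WT.

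Potassium channel genes mostly stood higher at E14.5 than at E12.5. In HARE5Hs/Hs cortex 38 of 73 rose, where 23.7% of all tested genes rose, and 6 fell, where 22% of all tested genes fell (44 in either direction, against 45.7%). In WT cortex 27 of 73 rose, against 20% of all tested genes, and 4 fell, against 15.2% (31 in either direction, against 35.2%). The median log2 fold change over the 73 was 1.02 in HARE5Hs/Hs and 0.60 in WT, while over all tested genes it was −0.03 in HARE5Hs/Hs and −0.01 in WT. The rise was at least 2-fold for 32 genes in HARE5Hs/Hs, where 8.34% of all tested genes rose so far, and for 25 in WT, where 6.4% did. Falls of that size numbered 5 in HARE5Hs/Hs (7.9% of all tested genes) and 3 in WT (5.79%). At an unadjusted p under 0.05 there were 51 in HARE5Hs/Hs (53.5% of all tested genes) and 40 in WT (45.3%). All 3 E14.5 embryos stood above all 3 E12.5 embryos for 37 genes and below for 10 in HARE5Hs/Hs, where 28.9% and 29.6% of all tested genes did so, and for 32 and 7 in WT, where 26.1% and 22.9% did so. All 27 genes that rose in WT also rose in HARE5Hs/Hs (17.5% of all tested genes rose in both), and 3 genes, Kcnk5, Kcne3 and Kcnn4, fell in both (12.6% of all tested genes fell in both). Another 11 rose with a call in HARE5Hs/Hs and none in WT, 3 fell with a call in HARE5Hs/Hs and none in WT, and Kcnk1 fell with a call in WT and none in HARE5Hs/Hs. No Kcn gene passed the test of the difference between these age changes, as given further on. Summed over the 97 genes, the level was 935, 1065 and 1214 CPM at E14.5, against 527, 368 and 394 CPM at E12.5, in HARE5Hs/Hs cortex, and 928, 867 and 809 CPM at E14.5, against 452, 371 and 380 CPM at E12.5, in WT cortex. The neuron markers moved the same way (12 of 12 rose in HARE5Hs/Hs and 11 of 12 in WT), and their part in the Kcn changes was not tested. Of the calls, 26 of 44 in HARE5Hs/Hs and 23 of 31 in WT passed whichever 1 of the 6 compared libraries was left out. The count of falls was 3 in HARE5Hs/Hs without E12.5 embryo 2 or without E14.5 embryo 3, and 2 in WT without E12.5 embryo 3. The counts by subfamily that follow stand against these same shares of all tested genes, and most rest on few genes. In bulk tissue, more cells of a type and more RNA per cell cannot be told apart.

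**Figure D1:**
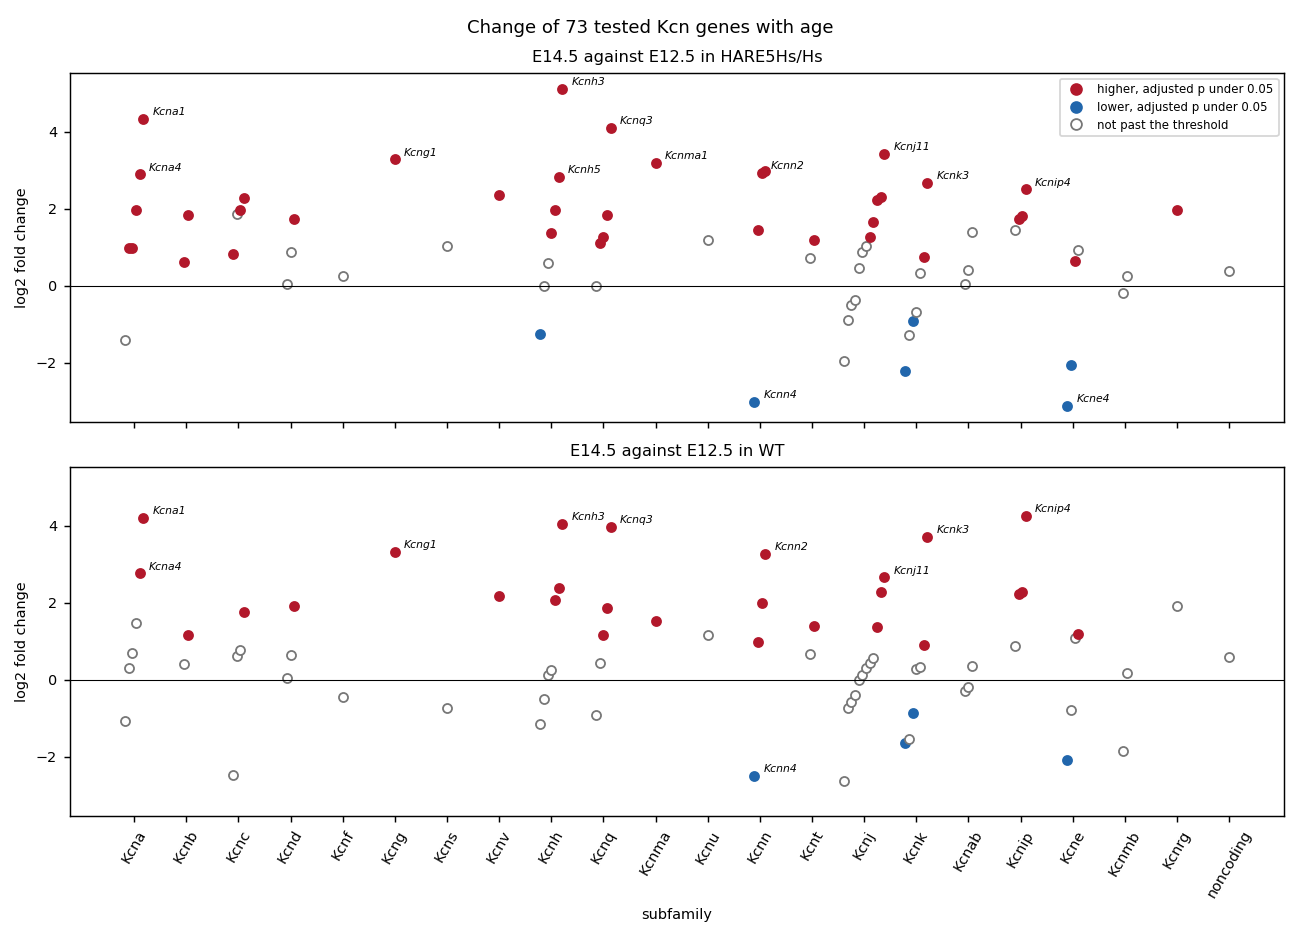
Log2 fold change at E14.5 against E12.5 for each of the 73 tested Kcn genes, by subfamily, in HARE5Hs/Hs cortex (upper panel) and WT cortex (lower panel). Red points passed with a higher level at E14.5 (38 in HARE5Hs/Hs, 27 in WT), blue points with a lower level (6 and 4), and open points did not pass; called genes with a change beyond 2.4 on the log2 scale are named, other than Kcnn3.

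The Kcnq subfamily includes the channels of the slowly activating M current. Kcnq3, a subunit of those channels, had a far lower level at E12.5 than at E14.5. It was at 11.8, 16.9 and 23.6 FPKM at E14.5, against 1.61, 0.471 and 0.938 FPKM at E12.5, in HARE5Hs/Hs cortex. Levels in WT were 8.86, 8.86 and 6.33 FPKM at E14.5, against 0.928, 0.370 and 0.257 FPKM at E12.5. No embryo of one age reached the range of the other. Kcnq3 rose by 4.11 ± 0.45 (SE, adjusted p = 6.34e-05) in HARE5Hs/Hs and 3.97 ± 0.48 (SE, adjusted p = 0.000187) in WT. Kcnq5 rose in both (1.26 in HARE5Hs/Hs and 1.17 in WT), although in WT the call ended without E14.5 embryo 1 or 2 or E12.5 embryo 1 (adjusted p 0.0511 to 0.0772). Kcnq1, the cardiac and epithelial member, was at 0.209 to 0.583 FPKM at E14.5 and 0.349 to 0.775 FPKM at E12.5, with adjusted p of 0.981 in HARE5Hs/Hs and 0.136 in WT. It lies opposite the imprinted noncoding Kcnq1ot1 on the other strand, and the strand setting of the counting is not given in the sources used here, so reads of the pair cannot be told apart. Kcnq1ot1 was at 0.498, 0.376 and 0.524 FPKM in E14.5 HARE5Hs/Hs, 0.533, 0.497 and 0.532 FPKM in E14.5 WT, 0.376, 0.348 and 0.349 FPKM in E12.5 HARE5Hs/Hs and 0.567, 0.290 and 0.196 FPKM in E12.5 WT. Its age change did not pass in HARE5Hs/Hs (0.38 ± 0.28 (SE, adjusted p = 0.286)) or WT (0.59 ± 0.28 (SE, adjusted p = 0.121)), but in WT it was 1.10 without E12.5 embryo 1 (adjusted p = 0.0013).

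Among the Kcna genes, which encode low-threshold delayed rectifiers of axons, 5 of 6 tested members rose in HARE5Hs/Hs and 2 in WT. Kcna1, an axonal channel of mature neurons, was at 3.35, 3.76 and 6.26 FPKM at E14.5, against 0.251, 0.226 and 0.181 FPKM at E12.5, in HARE5Hs/Hs cortex. WT cortex had 3.37, 2.98 and 2.45 FPKM at E14.5, against 0.191, 0.140 and 0.150 FPKM at E12.5. The lowest E14.5 embryo stood at 2.45 FPKM and the highest E12.5 embryo at 0.251 FPKM. Kcna1 had the smallest p of all Kcn genes in both genotypes, with a change of 4.33 ± 0.26 (SE, adjusted p = 2.62e-06) in HARE5Hs/Hs and 4.21 ± 0.27 (SE, adjusted p = 5.56e-06) in WT. Kcna4, a fast-inactivating member, rose by 2.89 ± 0.81 (SE, adjusted p = 0.0124) in HARE5Hs/Hs and by 2.77 ± 0.82 (SE, adjusted p = 0.0202) in WT from under 0.1 FPKM at E12.5, and the WT call ended without E14.5 embryo 1 or E12.5 embryo 2 or 3 (adjusted p 0.0571 to 0.077). Kcna3, best known from T lymphocytes, had the highest mean FPKM of the subfamily. The HARE5Hs/Hs levels were 9.77, 10.3 and 11.5 FPKM at E14.5, against 8.28, 2.85 and 4.89 FPKM at E12.5. For WT the values were 6.87, 8.49 and 6.27 FPKM at E14.5, against 4.99, 5.14 and 3.33 FPKM at E12.5. The ages did not overlap in either genotype, but the spread at E12.5 was wide, and HARE5Hs/Hs embryo 1 there was close to the E14.5 values. Kcna3 rose in HARE5Hs/Hs (0.97 ± 0.31 (SE, adjusted p = 0.0232)) and did not pass in WT (0.70 ± 0.31 (SE, adjusted p = 0.101)); the HARE5Hs/Hs call ended without E14.5 embryo 2 or 3 or E12.5 embryo 2 or 3 (adjusted p 0.0506 to 0.0676). With only the libraries compared in the fit, Kcna3 did not pass in HARE5Hs/Hs (adjusted p = 0.0528) and passed in WT (adjusted p = 0.0429). Kcna6 was at 2.92, 3.56 and 3.34 FPKM at E14.5, against 1.88, 1.78 and 1.33 FPKM at E12.5, in HARE5Hs/Hs cortex. WT embryos had 2.12, 1.48 and 2.31 FPKM at E14.5, against 1.96, 1.85 and 1.03 FPKM at E12.5. The ages separated in HARE5Hs/Hs and overlapped in WT. The change was 0.97 ± 0.25 (SE, adjusted p = 0.00775) in HARE5Hs/Hs and 0.31 ± 0.25 (SE, adjusted p = 0.368) in WT. Kcna2 rose in HARE5Hs/Hs (1.97 ± 0.62 (SE, adjusted p = 0.0204)), not without E14.5 embryo 3 or E12.5 embryo 2 (adjusted p 0.0762 to 0.0784), and stood at 3.28 without E12.5 embryo 1. Kcna5 did not pass in HARE5Hs/Hs (−1.41) or WT (−1.06). Kcna5, Kcna1 and Kcna6 follow each other in gene order on chromosome 6, and Kcna3, Kcna2 and Kcna10 on chromosome 3; Kcna10 had no count, and Kcna7 had 1 count in all.

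Delayed rectifiers of the cell body and fast-spiking channels were next. Kcnb2 belongs to the subfamily that carries the main delayed rectifier current of cortical neurons. Kcnb2 was at 1.91, 1.98 and 2.01 FPKM at E14.5, against 0.680, 0.247 and 0.725 FPKM at E12.5, in HARE5Hs/Hs cortex. The WT levels were 1.43, 1.14 and 1.19 FPKM at E14.5, against 0.572, 0.434 and 0.688 FPKM at E12.5. Every E14.5 embryo lay above every E12.5 embryo. Kcnb2 rose by 1.84 ± 0.34 (SE, adjusted p = 0.00113) in HARE5Hs/Hs and by 1.17 ± 0.34 (SE, adjusted p = 0.019) in WT, where the call ended without E14.5 embryo 1 or E12.5 embryo 2 (adjusted p 0.0686 to 0.0709). Kcnc channels allow high firing rates. Kcnc1 was at 3.71, 5.58 and 6.85 FPKM at E14.5, against 2.11, 0.739 and 1.14 FPKM at E12.5, in HARE5Hs/Hs cortex. Levels in WT were 3.50, 3.23 and 3.20 FPKM at E14.5, against 1.26, 0.484 and 1.21 FPKM at E12.5. The ages were apart in both genotypes, with a change of 1.95 ± 0.38 (SE, adjusted p = 0.00152) in HARE5Hs/Hs and 1.76 ± 0.39 (SE, adjusted p = 0.00464) in WT. Kcnc4 rose in HARE5Hs/Hs (2.29 ± 0.83 (SE, adjusted p = 0.039)), not without E14.5 embryo 1, 2 or 3 or E12.5 embryo 2 or 3 (adjusted p 0.0555 to 0.125), and had the opposite sign in WT (−2.49 ± 0.99 (SE, adjusted p = 0.0679)).

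Of the 3 Kcnd genes, which carry the subthreshold A-type current of neuronal dendrites, Kcnd3 alone passed in each genotype. Kcnd3 was at 10.7, 10.4 and 11.5 FPKM at E14.5, against 4.86, 1.60 and 2.43 FPKM at E12.5, in HARE5Hs/Hs cortex. For WT the values were 8.99, 8.56 and 7.54 FPKM at E14.5, against 1.80, 1.90 and 1.69 FPKM at E12.5. No E12.5 embryo came up to the E14.5 range, though HARE5Hs/Hs embryo 1 at E12.5 was well above the others of its age. The change was 1.72 ± 0.24 (SE, adjusted p = 0.000197) in HARE5Hs/Hs and 1.91 ± 0.24 (SE, adjusted p = 0.000243) in WT. In mean FPKM the log2 ratio for Kcnd3 was larger, at 1.88 in HARE5Hs/Hs and 2.22 in WT. Kcnd1 was at 1.29, 1.74 and 1.75 FPKM at E14.5, against 1.06, 1.08 and 0.458 FPKM at E12.5, in HARE5Hs/Hs cortex and 1.51, 1.52 and 1.41 FPKM at E14.5, against 1.55, 0.725 and 0.607 FPKM at E12.5, in WT cortex. It did not pass in HARE5Hs/Hs (0.87 ± 0.39 (SE, adjusted p = 0.0852)) or WT (0.64 ± 0.38 (SE, adjusted p = 0.214)), but stood at 1.15 in WT without E12.5 embryo 1 (adjusted p = 0.0342). Kcnd2, the principal dendritic member of adult cortex, was at 1.98 to 3.07 FPKM at E14.5 and 1.92 to 2.74 FPKM at E12.5, with a change of 0.05 ± 0.21 (SE, adjusted p = 0.854) in HARE5Hs/Hs and 0.04 ± 0.21 (SE, adjusted p = 0.891) in WT. The Kcnip genes encode calcium-binding subunits that bring Kcnd channels to the membrane, and 3 of 4 rose in each genotype. Kcnip3, also known as the transcriptional repressor DREAM, had the highest mean FPKM of them. Levels in HARE5Hs/Hs were 18, 18.9 and 19.0 FPKM at E14.5, against 6.91, 3.52 and 5.41 FPKM at E12.5. WT embryos had 21.0, 23.0 and 15.6 FPKM at E14.5, against 4.89, 3.21 and 4.89 FPKM at E12.5. The E14.5 embryos lay above the E12.5 embryos in both genotypes. Kcnip3 rose by 1.82 ± 0.23 (SE, adjusted p = 0.000127) in HARE5Hs/Hs and 2.22 ± 0.23 (SE, adjusted p = 0.000109) in WT. Kcnip1 was at 17.3, 13.8 and 10.2 FPKM at E14.5, against 4.43, 3.27 and 4.91 FPKM at E12.5, in HARE5Hs/Hs cortex. The WT levels were 22.2, 20.2 and 17.8 FPKM at E14.5, against 5.97, 3.20 and 3.68 FPKM at E12.5. It rose by 1.72 ± 0.24 (SE, adjusted p = 0.000192) in HARE5Hs/Hs and 2.28 ± 0.24 (SE, adjusted p = 0.000109) in WT, again with no overlap of ages. Kcnip4 passed upward in both genotypes from few reads. In WT the 3 E14.5 embryos held 24 counts and the 3 E12.5 embryos 1 count, a ratio of 26.2 (95% counting interval 4.28 to 1080, which leaves out the spread between embryos), and the call ended without E14.5 embryo 1 or E12.5 embryo 1 or 3 (adjusted p 0.0714 to 0.0837). In HARE5Hs/Hs it was at 0.0981, 0.526 and 1.54 FPKM at E14.5, against 0.169, 0.0609 and 0.147 FPKM at E12.5, and its change of 2.5 dropped to 1.29 without E14.5 embryo 3; that call ended without E14.5 embryo 2 or 3 or E12.5 embryo 1, 2 or 3 (adjusted p 0.0648 to 0.306). Kcnip2 did not pass in HARE5Hs/Hs (1.44) or WT (0.87).

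**Figure D2:**
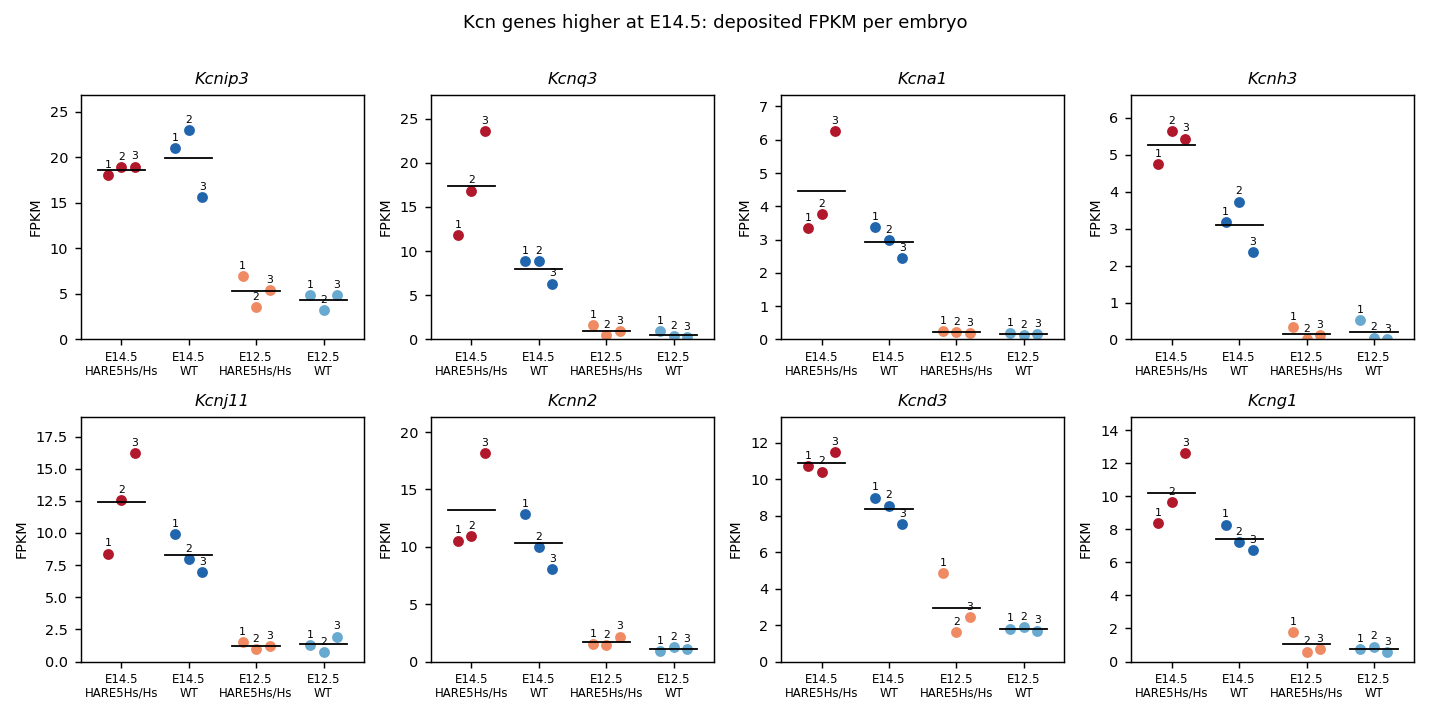
Deposited FPKM of 8 Kcn genes that rose in both genotypes, per embryo (points, numbered by replicate) with the group mean (line), for E14.5 HARE5Hs/Hs, E14.5 WT, E12.5 HARE5Hs/Hs and E12.5 WT. In each panel all 6 E14.5 embryos lie above all 6 E12.5 embryos, and E12.5 HARE5Hs/Hs embryo 1 is the highest at that age for Kcnip3, Kcnq3, Kcna1, Kcnd3 and Kcng1.

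The electrically silent subunits, which alter Kcnb channels without forming channels of their own, were led by Kcng1. In HARE5Hs/Hs cortex Kcng1 was at 8.39, 9.64 and 12.6 FPKM at E14.5, against 1.78, 0.595 and 0.750 FPKM at E12.5. Levels in WT were 8.29, 7.22 and 6.75 FPKM at E14.5, against 0.734, 0.908 and 0.592 FPKM at E12.5. The ages were far apart in both genotypes. It rose by 3.28 ± 0.35 (SE, adjusted p = 6.08e-05) in HARE5Hs/Hs and 3.33 ± 0.36 (SE, adjusted p = 0.000125) in WT. The other 3 Kcng genes were under the filter, with 0 to 13 counts over 3 embryos. Kcng2 held 0 counts in E14.5 WT embryos, against 13 in E12.5 WT embryos, 3.96-fold lower when 3 counts per group are put for the 0. Kcnv1 rose too, by 2.36 ± 0.51 (SE, adjusted p = 0.0028) in HARE5Hs/Hs and 2.18 ± 0.52 (SE, adjusted p = 0.00744) in WT. It was at 1.26, 1.98 and 3.41 FPKM at E14.5, against 0.440, 0.205 and 0.647 FPKM at E12.5, in HARE5Hs/Hs cortex and 1.45, 1.06 and 1.08 FPKM at E14.5, against 0.449, 0.122 and 0.234 FPKM at E12.5, in WT cortex. Kcnf1 was at 0.668, 0.913 and 0.678 FPKM in E14.5 HARE5Hs/Hs, 0.272, 0.461 and 0.412 FPKM in E14.5 WT, 0.638, 0.958 and 0.288 FPKM in E12.5 HARE5Hs/Hs and 0.582, 0.711 and 0.301 FPKM in E12.5 WT. These values overlap between ages, with 0.25 ± 0.44 (SE, adjusted p = 0.666) in HARE5Hs/Hs and −0.45 ± 0.46 (SE, adjusted p = 0.465) in WT. Kcns3 was at 0.0685 to 0.441 FPKM at E14.5 and 0.0228 to 0.535 FPKM at E12.5 and did not pass in HARE5Hs/Hs (1.02 ± 0.80 (SE, adjusted p = 0.317)) or WT (−0.73 ± 0.76 (SE, adjusted p = 0.481)). Kcns2 was under the filter. It held 29 counts in HARE5Hs/Hs and 14 in WT at E14.5, against 0 in either at E12.5. That is 11.2-fold higher in HARE5Hs/Hs and 5.1-fold higher in WT when 3 counts per group are put for the 0. The authors' deposited DESeq2 change of Kcns2 was 6.14 (adjusted p = 0.00642) in HARE5Hs/Hs and 4.77 (adjusted p = 0.0515) in WT.

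The Kcnh subfamily of ether-a-go-go channels held the largest rise of the 73 tested Kcn genes in HARE5Hs/Hs, that of Kcnh3, and 1 fall. Of 7 tested members 4 rose and 1 fell in HARE5Hs/Hs, and 3 rose and 0 fell in WT. Kcnh3, a forebrain channel, was at 4.75, 5.63 and 5.44 FPKM at E14.5, against 0.324, 0.0162 and 0.117 FPKM at E12.5, in HARE5Hs/Hs cortex. WT cortex had 3.17, 3.73 and 2.37 FPKM at E14.5, against 0.514, 0.0517 and 0 FPKM at E12.5. No E12.5 embryo was above 0.514 FPKM and no E14.5 embryo below 2.37 FPKM. The change was 5.10 ± 0.89 (SE, adjusted p = 0.00073) in HARE5Hs/Hs and 4.05 ± 0.85 (SE, adjusted p = 0.00362) in WT, where it was 6.73 without E12.5 embryo 1. Kcnh5 was at 1.69, 2.08 and 3.37 FPKM at E14.5, against 0.363, 0.156 and 0.480 FPKM at E12.5, in HARE5Hs/Hs cortex. For WT the values were 0.919, 1.01 and 1.03 FPKM at E14.5, against 0.241, 0.226 and 0.244 FPKM at E12.5. It rose by 2.83 ± 0.39 (SE, adjusted p = 0.000191) in HARE5Hs/Hs and 2.07 ± 0.40 (SE, adjusted p = 0.00206) in WT, with no overlap of ages. Kcnh7 had the highest mean FPKM of the subfamily. It was at 5.12, 5.28 and 5.47 FPKM at E14.5, against 2.07, 0.656 and 1.34 FPKM at E12.5, in HARE5Hs/Hs cortex and 5.88, 4.90 and 4.75 FPKM at E14.5, against 1.59, 0.453 and 0.993 FPKM at E12.5, in WT cortex. Kcnh7 rose by 1.96 ± 0.41 (SE, adjusted p = 0.0022) in HARE5Hs/Hs and 2.38 ± 0.42 (SE, adjusted p = 0.00131) in WT. Kcnh8 rose in HARE5Hs/Hs (1.35 ± 0.42 (SE, adjusted p = 0.0193)), not without E14.5 embryo 2 or 3 or E12.5 embryo 3 (adjusted p 0.059 to 0.0674), and did not pass in WT (0.24 ± 0.41 (SE, adjusted p = 0.674)). Kcnh4, of the Elk group, was lower at E14.5 on average in both genotypes. HARE5Hs/Hs embryos had 0.329, 1.06 and 0.332 FPKM at E14.5, against 1.65, 1.49 and 0.960 FPKM at E12.5. WT embryos had 0.569, 0.590 and 0.637 FPKM at E14.5, against 1.80, 1.20 and 1.08 FPKM at E12.5. In WT the ages did not overlap, while in HARE5Hs/Hs 1 E14.5 embryo reached the E12.5 range. Kcnh4 fell in HARE5Hs/Hs (−1.25 ± 0.44 (SE, adjusted p = 0.0336)) and did not pass in WT (−1.16 ± 0.43 (SE, adjusted p = 0.0537)). The HARE5Hs/Hs call ended without E14.5 embryo 1 or 3 or E12.5 embryo 1 or 2 (adjusted p 0.0881 to 0.113), and the change was −2.04 without E14.5 embryo 2. In WT it passed with DESeq2 (adjusted p = 0.0285) and with only the libraries compared in the fit (adjusted p = 0.02), which ended the HARE5Hs/Hs call (adjusted p = 0.0851). Kcnh2, the cardiac repolarisation channel, and Kcnh1 did not pass in either genotype. Kcnh6, under the filter, held 0 counts in E14.5 WT embryos, against 14 in E12.5 WT embryos, 4.27-fold lower by the same floor.

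Of the 4 Kcnn genes, small- and intermediate-conductance channels opened by calcium, 3 rose and 1 fell in each genotype. Kcnn2 was at 10.5, 10.9 and 18.2 FPKM at E14.5, against 1.55, 1.42 and 2.18 FPKM at E12.5, in HARE5Hs/Hs cortex. The WT levels were 12.9, 9.95 and 8.09 FPKM at E14.5, against 0.875, 1.26 and 1.08 FPKM at E12.5. Every E14.5 embryo stood several times above every E12.5 embryo. Kcnn2 rose by 2.93 ± 0.28 (SE, adjusted p = 3.24e-05) in HARE5Hs/Hs and 3.27 ± 0.29 (SE, adjusted p = 4.6e-05) in WT. Kcnn3 was at 4.05, 4.68 and 5.56 FPKM at E14.5, against 0.856, 0.341 and 0.634 FPKM at E12.5, in HARE5Hs/Hs cortex. Levels in WT were 4.09, 3.18 and 2.47 FPKM at E14.5, against 1.16, 0.558 and 0.762 FPKM at E12.5. It rose by 2.96 ± 0.34 (SE, adjusted p = 7.27e-05) in HARE5Hs/Hs and 1.99 ± 0.32 (SE, adjusted p = 0.000839) in WT. Kcnn1 rose by 1.45 ± 0.28 (SE, adjusted p = 0.00153) in HARE5Hs/Hs and 0.97 ± 0.28 (SE, adjusted p = 0.0196) in WT, and the WT call ended without E14.5 embryo 1 or 3 or E12.5 embryo 1 or 2 (adjusted p 0.0576 to 0.0675). Kcnn4, the channel of red cells, lymphocytes and microglia, went the other way. The HARE5Hs/Hs levels were 0.0335, 0.193 and 0.209 FPKM at E14.5, against 0.416, 1.39 and 1.60 FPKM at E12.5. WT cortex had 0.113, 0.340 and 0.0372 FPKM at E14.5, against 0.704, 0.930 and 1.21 FPKM at E12.5. All 6 E14.5 embryos lay below all 6 E12.5 embryos. It fell, at −3.01 ± 0.80 (SE, adjusted p = 0.00898) in HARE5Hs/Hs and −2.49 ± 0.78 (SE, adjusted p = 0.0257) in WT, where the call ended without E14.5 embryo 1 or 3 or E12.5 embryo 2 or 3 (adjusted p 0.0571 to 0.0929). Beside it, the 8 erythroid genes summed to 2502 to 5724 CPM in E14.5 HARE5Hs/Hs, against 3802 to 12008 CPM in E12.5 HARE5Hs/Hs, and to 736 to 2234 CPM in E14.5 WT, against 3346 to 4540 CPM in E12.5 WT. The 8 microglia genes summed to 24.9 to 40.4 CPM in E14.5 HARE5Hs/Hs, against 48.6 to 56.8 CPM in E12.5 HARE5Hs/Hs, and to 24.8 to 50.8 CPM in E14.5 WT, against 46.0 to 66.6 CPM in E12.5 WT. By gene, 3 of 7 tested erythroid genes fell in HARE5Hs/Hs, with 3 standing higher at E14.5, and 4 of 7 fell in WT. Of the 8 microglia genes 1 fell in each genotype. Over all tested genes 22% fell in HARE5Hs/Hs and 15.2% in WT. The part of either list in the Kcnn4 values was not tested.

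The large-conductance calcium-activated channel gene Kcnma1 rose in both genotypes. Levels in HARE5Hs/Hs were 1.23, 1.79 and 4.48 FPKM at E14.5, against 0.346, 0.25 and 0.264 FPKM at E12.5. For WT the values were 0.896, 1.17 and 1.04 FPKM at E14.5, against 0.512, 0.202 and 0.308 FPKM at E12.5. The ages were apart, and E14.5 HARE5Hs/Hs embryo 3 was far above every other embryo. The change was 3.19 ± 0.48 (SE, adjusted p = 0.000308) in HARE5Hs/Hs and 1.53 ± 0.46 (SE, adjusted p = 0.022) in WT, where the call ended without E14.5 embryo 2 or E12.5 embryo 2 or 3 (adjusted p 0.0605 to 0.0798). Its auxiliary subunit Kcnmb4, the neuronal form, had one of the highest levels of any Kcn gene at both ages. Kcnmb4 was at 8.21, 10.3 and 13.4 FPKM in E14.5 HARE5Hs/Hs, 9.46, 8.87 and 8.58 FPKM in E14.5 WT, 9.68, 7.87 and 9.07 FPKM in E12.5 HARE5Hs/Hs and 8.73, 7.36 and 8.19 FPKM in E12.5 WT. Its change did not pass (0.24 ± 0.20 (SE, adjusted p = 0.349) in HARE5Hs/Hs and 0.17 ± 0.20 (SE, adjusted p = 0.56) in WT). Kcnmb4os2 is transcribed from the opposite strand beside it, with 12 to 38 counts over 3 embryos, and without the strand setting reads of this pair cannot be told apart either. Kcnmb2 did not pass in HARE5Hs/Hs (−0.21 ± 0.67 (SE, adjusted p = 0.824)) or WT (−1.87 ± 0.72 (SE, adjusted p = 0.0606)), although in WT it stood at −2.28 without E12.5 embryo 2 (adjusted p = 0.0294). Kcnt2, a sodium-activated channel, was at 1.25, 1.40 and 2.39 FPKM at E14.5, against 0.568, 0.892 and 0.740 FPKM at E12.5, in HARE5Hs/Hs cortex and 1.59, 1.14 and 1.70 FPKM at E14.5, against 0.331, 0.776 and 0.601 FPKM at E12.5, in WT cortex. It rose by 1.18 ± 0.36 (SE, adjusted p = 0.0174) in HARE5Hs/Hs, not without E14.5 embryo 3 or E12.5 embryo 1 (adjusted p 0.0549 to 0.079), and by 1.39 ± 0.36 (SE, adjusted p = 0.011) in WT. Its relative Kcnt1 did not pass (0.71 ± 0.52 (SE, adjusted p = 0.287) in HARE5Hs/Hs and 0.67 ± 0.54 (SE, adjusted p = 0.361) in WT), although in HARE5Hs/Hs it was 1.70 without E12.5 embryo 1 (adjusted p = 0.0103). Kcnu1, known from sperm, was at 0.372 to 1.07 FPKM at E14.5 and 0.168 to 0.384 FPKM at E12.5. It did not pass in HARE5Hs/Hs (1.19 ± 0.46 (SE, adjusted p = 0.0519)) or WT (1.17 ± 0.48 (SE, adjusted p = 0.0742)), and passed in HARE5Hs/Hs without E14.5 embryo 1 (adjusted p = 0.0491) or 2 (adjusted p = 0.0469) and with a stricter filter (adjusted p = 0.0484).

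Of 12 tested Kcnj genes, which encode inward rectifiers, 5 rose in HARE5Hs/Hs, where 23.7% of all tested genes rose, and 3 in WT, a share near the 20% of all tested genes, and 0 fell in either. Kcnj11 forms the pore of the ATP-sensitive potassium channel of neurons and islet cells. HARE5Hs/Hs embryos had 8.39, 12.6 and 16.2 FPKM at E14.5, against 1.54, 0.958 and 1.18 FPKM at E12.5. WT embryos had 9.90, 7.98 and 6.94 FPKM at E14.5, against 1.30, 0.759 and 1.93 FPKM at E12.5. The lowest E14.5 embryo stood at 6.94 FPKM and the highest E12.5 embryo at 1.93 FPKM. Kcnj11 rose by 3.42 ± 0.33 (SE, adjusted p = 3.6e-05) in HARE5Hs/Hs and 2.66 ± 0.32 (SE, adjusted p = 0.000204) in WT. Abcc8, the sulfonylurea receptor that completes this channel, was at 5.83, 8.70 and 10.6 FPKM at E14.5, against 0.282, 0.197 and 0.251 FPKM at E12.5, in HARE5Hs/Hs cortex. The WT levels were 6.03, 4.32 and 4.82 FPKM at E14.5, against 0.340, 0.184 and 0.251 FPKM at E12.5. It rose by 5.10 ± 0.29 (SE, adjusted p = 2.62e-06) in HARE5Hs/Hs and 4.31 ± 0.28 (SE, adjusted p = 5.56e-06) in WT, so that both subunits of the neuronal channel were higher at E14.5. The vascular pair of the same channel type, Kcnj8 with Abcc9, did not pass: Kcnj8 stood at −0.88 ± 0.35 (SE, adjusted p = 0.0544) in HARE5Hs/Hs and −0.59 ± 0.34 (SE, adjusted p = 0.202) in WT, and Abcc9 at −0.45 ± 0.25 (SE, adjusted p = 0.168) and −0.37 ± 0.25 (SE, adjusted p = 0.276). Kcnj10, the channel by which glia take up potassium, rose in both genotypes. It was at 5.33, 4.76 and 6.61 FPKM at E14.5, against 2.92, 2.4 and 1.61 FPKM at E12.5, in HARE5Hs/Hs cortex. Levels in WT were 6.26, 5.33 and 4.07 FPKM at E14.5, against 1.71, 2.29 and 2.19 FPKM at E12.5. The change was 1.26 ± 0.22 (SE, adjusted p = 0.000835) in HARE5Hs/Hs and 1.36 ± 0.23 (SE, adjusted p = 0.000962) in WT, without overlap of ages. Kcnj3, a G protein-gated channel of neurons, rose by 2.31 ± 0.54 (SE, adjusted p = 0.00426) in HARE5Hs/Hs and 2.27 ± 0.55 (SE, adjusted p = 0.00739) in WT. Its partner Kcnj9, which lies next to Kcnj10 on chromosome 1, rose in HARE5Hs/Hs (1.65 ± 0.47 (SE, adjusted p = 0.0129)), not without E12.5 embryo 2 or 3 (adjusted p 0.0507 to 0.0541), and did not pass in WT (0.56 ± 0.46 (SE, adjusted p = 0.368)). Kcnj4 passed in HARE5Hs/Hs (2.24 ± 0.83 (SE, adjusted p = 0.0438)) on 1 embryo, with 0.241, 0.346 and 2.16 FPKM at E14.5, against 0.249, 0.168 and 0.135 FPKM at E12.5. Without E14.5 embryo 3 or E12.5 embryo 1, 2 or 3 (adjusted p 0.0653 to 0.493) the call ended, and without E14.5 embryo 3 the change was 0.66. Kcnj2, Kcnj5, Kcnj6, Kcnj14 and Kcnj15 did not pass in either genotype.

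Of 7 tested Kcnk genes, which encode leak channels, 2 rose and 2 fell in each genotype, shares near those of all tested genes (23.7% rose and 22% fell in HARE5Hs/Hs, 20% rose and 15.2% fell in WT). Kcnk5, an alkaline-activated channel of epithelia, was at 6.25, 4.38 and 4.31 FPKM at E14.5, against 8.76, 9.50 and 9.85 FPKM at E12.5, in HARE5Hs/Hs cortex. WT cortex had 4.09, 6.08 and 5.71 FPKM at E14.5, against 7.62, 11.3 and 10.8 FPKM at E12.5. All 6 E14.5 embryos lay below all 6 E12.5 embryos. It fell, at −0.91 ± 0.20 (SE, adjusted p = 0.00293) in HARE5Hs/Hs and −0.88 ± 0.20 (SE, adjusted p = 0.00518) in WT, and both calls held without any 1 library. Kcnk1, a weakly conducting member, was at 1.34, 0.738 and 1.26 FPKM at E14.5, against 1.5, 1.87 and 1.98 FPKM at E12.5, in HARE5Hs/Hs cortex. For WT the values were 0.437, 0.565 and 1.21 FPKM at E14.5, against 2.72, 2.52 and 1.81 FPKM at E12.5. The E14.5 embryos were below the E12.5 embryos in each genotype. Kcnk1 fell in WT (−1.65 ± 0.40 (SE, adjusted p = 0.00745)) and did not pass in HARE5Hs/Hs (−0.68 ± 0.39 (SE, adjusted p = 0.166)). Kcnk6 was at 0.288, 0.139 and 0 FPKM at E14.5, against 0.580, 0.706 and 0.851 FPKM at E12.5, in HARE5Hs/Hs cortex. WT embryos had 0.0845, 0.272 and 0.470 FPKM at E14.5, against 0.959, 0.435 and 1.05 FPKM at E12.5. It fell in HARE5Hs/Hs (−2.23 ± 0.78 (SE, adjusted p = 0.0348)), not without E14.5 embryo 2 or 3 or E12.5 embryo 2 or 3 (adjusted p 0.0623 to 0.0944), with only the libraries compared (adjusted p = 0.0548) or with the replicate block (adjusted p = 0.0617), and did not pass in WT (−1.53 ± 0.74 (SE, adjusted p = 0.127)). Kcnk2, a mechanosensitive channel and the Kcnk gene of highest mean FPKM, was at 9.06, 8.78 and 7.48 FPKM in E14.5 HARE5Hs/Hs, 8.45, 7.18 and 9.47 FPKM in E14.5 WT, 7.57, 5.64 and 7.16 FPKM in E12.5 HARE5Hs/Hs and 8.51, 4.91 and 7.59 FPKM in E12.5 WT. The ages overlapped, and its change did not pass (0.33 ± 0.20 (SE, adjusted p = 0.191) in HARE5Hs/Hs and 0.28 ± 0.20 (SE, adjusted p = 0.287) in WT). Kcnk10, of the same mechanosensitive group, was at 7.66 to 10.5 FPKM at E14.5 and 3.01 to 6.63 FPKM at E12.5. It rose by 0.74 ± 0.23 (SE, adjusted p = 0.018) in HARE5Hs/Hs, not without E14.5 embryo 1 or E12.5 embryo 3 (adjusted p 0.0504 to 0.0641), and by 0.91 ± 0.23 (SE, adjusted p = 0.00901) in WT. Kcnk3, an acid-sensitive channel, rose from a low level by 2.66 ± 0.84 (SE, adjusted p = 0.0213) in HARE5Hs/Hs, not without E14.5 embryo 2 or E12.5 embryo 2 or 3 (adjusted p 0.0559 to 0.071), and by 3.71 ± 0.92 (SE, adjusted p = 0.00847) in WT. Kcnk13, a microglial member, did not pass in HARE5Hs/Hs (−1.27) or WT (0.32). The other 7 Kcnk genes were under the filter, and Kcnk15, Kcnk16 and Kcnk18 had no count.

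The single-span Kcne subunits, which pair with Kcnq, Kcnh and other pores, split by member. Kcne1l, named Kcne5 in current nomenclature, was at 10.1, 7.81 and 7.05 FPKM at E14.5, against 4.53, 4.42 and 6.99 FPKM at E12.5, in HARE5Hs/Hs cortex. The WT levels were 14.3, 10.1 and 10.6 FPKM at E14.5, against 5.94, 4.62 and 4.96 FPKM at E12.5. It rose by 0.64 ± 0.24 (SE, adjusted p = 0.0425) in HARE5Hs/Hs, a call that ended without E14.5 embryo 1 or 2 or E12.5 embryo 1 or 2 (adjusted p 0.0657 to 0.153) and with only the libraries compared in the fit (adjusted p = 0.0826), and by 1.19 ± 0.24 (SE, adjusted p = 0.0027) in WT. Kcne3 was at 0.970, 0.219 and 0.742 FPKM at E14.5, against 2.06, 2.93 and 2.60 FPKM at E12.5, in HARE5Hs/Hs cortex. Levels in WT were 1.13, 0.147 and 1.05 FPKM at E14.5, against 2.66, 3.90 and 2.69 FPKM at E12.5. No E14.5 embryo reached the lowest E12.5 value. Kcne3 fell, at −2.06 ± 0.65 (SE, adjusted p = 0.0212) in HARE5Hs/Hs, not without E14.5 embryo 2 or 3 or E12.5 embryo 2 (adjusted p 0.0579 to 0.0695), and at −2.10 ± 0.64 (SE, adjusted p = 0.0229) in WT, not without E14.5 embryo 2 or E12.5 embryo 2 or 3 (adjusted p 0.0517 to 0.0608). Kcne4 was at 0.0260, 0.119 and 0 FPKM at E14.5, against 0.538, 0.290 and 0.584 FPKM at E12.5, in HARE5Hs/Hs cortex. WT cortex had 0.0871, 0.263 and 0.288 FPKM at E14.5, against 0.412, 0.283 and 0.443 FPKM at E12.5. The ages separated in HARE5Hs/Hs and overlapped in WT. Kcne4 fell in HARE5Hs/Hs (−3.12 ± 0.82 (SE, adjusted p = 0.00855)) and did not pass in WT (−0.80 ± 0.69 (SE, adjusted p = 0.392)). Meninges and mesenchyme markers and endothelial markers also summed to less at E14.5. The 8 meninges and mesenchyme markers summed to 417, 141 and 10.7 CPM in E14.5 HARE5Hs/Hs, against 1127, 1986 and 1620 CPM in E12.5 HARE5Hs/Hs. In WT they summed to 401, 87.2 and 806 CPM at E14.5, against 2131, 1442 and 1281 CPM at E12.5. Endothelial markers summed to 101 to 200 CPM in E14.5 HARE5Hs/Hs and 106 to 236 CPM in E14.5 WT, against 294 to 414 CPM in E12.5 HARE5Hs/Hs and 313 to 410 CPM in E12.5 WT. Their part in the falls of Kcnk5, Kcnk6, Kcne3 and Kcne4 was not tested.

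**Figure D3:**
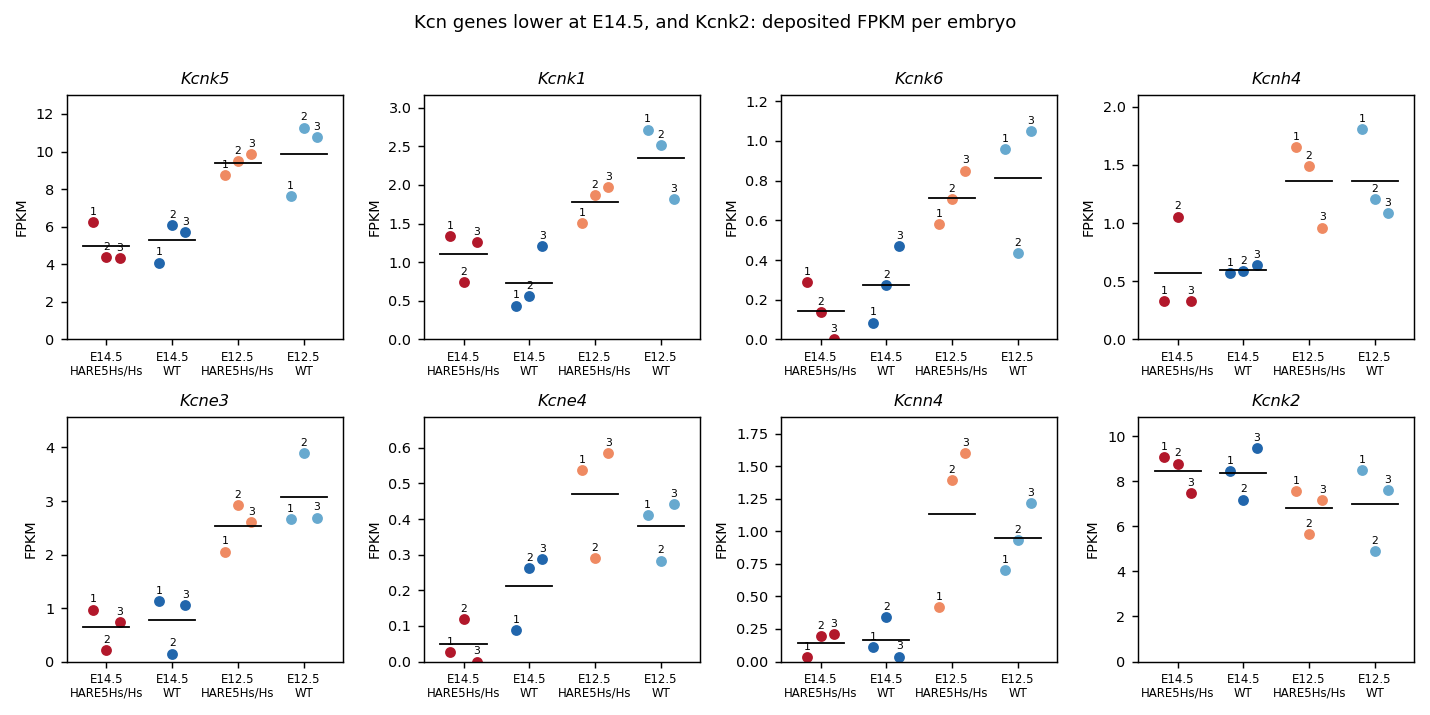
Deposited FPKM of 7 Kcn genes that fell in at least 1 genotype, and of Kcnk2, which did not pass, per embryo (points, numbered by replicate) with the group mean (line). For Kcnk5, Kcne3 and Kcnn4 all 6 E14.5 embryos lie below all 6 E12.5 embryos, while Kcnk2 overlaps between ages.

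Kcne2 and the inward rectifier Kcnj13, both known from the choroid plexus epithelium, varied between embryos of every group and were low in the same embryos as Ttr, the defining gene of that epithelium. Kcne2 was at 7.63, 11 and 0 FPKM in E14.5 HARE5Hs/Hs, 0.616, 3.67 and 12.3 FPKM in E14.5 WT, 5.53, 0.0365 and 4.42 FPKM in E12.5 HARE5Hs/Hs and 3.58, 0.156 and 4.31 FPKM in E12.5 WT. Kcnj13 was at 2.55, 4.70 and 0 FPKM, 0, 0.690 and 3.69 FPKM, 2.37, 0.0474 and 1.61 FPKM and 2.33, 0 and 1.79 FPKM in the same groups. Embryos listed at or near 0 for both were E14.5 HARE5Hs/Hs embryo 3, E12.5 HARE5Hs/Hs embryo 2 and E12.5 WT embryo 2, and E14.5 WT embryo 1 was low for both. Ttr stood at 361, 623 and 0.358 FPKM in E14.5 HARE5Hs/Hs, 15.8, 132 and 464 FPKM in E14.5 WT, 191, 13.9 and 187 FPKM in E12.5 HARE5Hs/Hs and 163, 19.3 and 185 FPKM in E12.5 WT, and was lowest in the same embryo of each group. Of the 6 tested choroid plexus markers 0 rose and 1 fell in each genotype. The age changes of Kcne2 (0.92 ± 1.40 (SE, adjusted p = 0.619) in HARE5Hs/Hs and 1.07 ± 1.41 (SE, adjusted p = 0.587) in WT) and of Kcnj13 (0.87 ± 1.5 (SE, adjusted p = 0.663) and 0.12 ± 1.51 (SE, adjusted p = 0.961)) did not pass, with standard errors above 1 on the log2 scale.

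**Figure D4:**
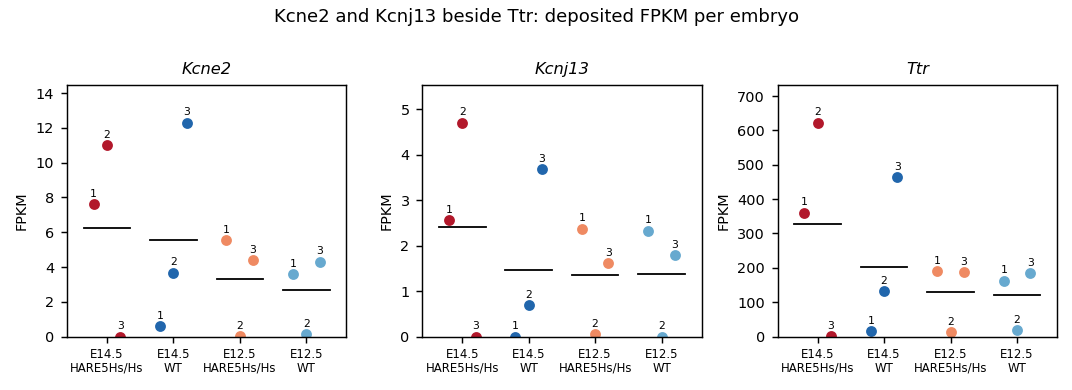
Deposited FPKM of Kcne2, Kcnj13 and the choroid plexus gene Ttr per embryo (points, numbered by replicate) with the group mean (line). All 3 genes are lowest in E14.5 HARE5Hs/Hs embryo 3, E14.5 WT embryo 1, E12.5 HARE5Hs/Hs embryo 2 and E12.5 WT embryo 2 of their groups.

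Of the 4 remaining auxiliary genes 1 rose in HARE5Hs/Hs and 0 in WT. The cytoplasmic beta subunits Kcnab1, Kcnab2 and Kcnab3 did not pass in either genotype. Kcnab2, the most abundant of them, was at 4.37 to 6.40 FPKM at E14.5 and 4.75 to 7.58 FPKM at E12.5, with 0.05 ± 0.20 (SE, adjusted p = 0.857) in HARE5Hs/Hs and −0.19 ± 0.20 (SE, adjusted p = 0.502) in WT. Kcnab3 was at 1.98 to 3.17 FPKM at E14.5 and 1.61 to 2.51 FPKM at E12.5, and Kcnab1 at 0.234 to 1.13 FPKM and 0.0216 to 0.627 FPKM. Kcnrg, a soluble regulator of channel assembly, was at 0.846, 1.73 and 0.572 FPKM at E14.5, against 0.380, 0.171 and 0.248 FPKM at E12.5, in HARE5Hs/Hs cortex and 0.740, 0.331 and 0.931 FPKM at E14.5, against 0.0389, 0.357 and 0.117 FPKM at E12.5, in WT cortex. It rose in HARE5Hs/Hs (1.97 ± 0.72 (SE, adjusted p = 0.0404)), not without E14.5 embryo 1 or 2 or E12.5 embryo 1, 2 or 3 (adjusted p 0.0518 to 0.182), with no filter (adjusted p = 0.051) or with the replicate block (adjusted p = 0.0789), and did not pass in WT (1.92 ± 0.75 (SE, adjusted p = 0.0651)), where it stood at 3.05 without E12.5 embryo 2 (adjusted p = 0.0271).

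Among genes that serve potassium channels without a Kcn symbol, channel partners mostly rose too. Of 13 tested channel partners 9 rose and 1 fell in each genotype, against the shares of all genes given above, and 2 fell in HARE5Hs/Hs without E12.5 embryo 1 or E14.5 embryo 3. Dlg2 and Dlg4, scaffolds that cluster Kcna and Kcnj channels, rose by 3.56 ± 0.35 (SE, adjusted p = 3.99e-05) and 1.43 ± 0.15 (SE, adjusted p = 6.03e-05) in HARE5Hs/Hs and by 3.21 ± 0.35 (SE, adjusted p = 0.000135) and 1.02 ± 0.15 (SE, adjusted p = 0.000534) in WT. Ank3, which anchors Kcnq channels at the axon initial segment, was at 21.3, 28.4 and 28.7 FPKM at E14.5, against 11.6, 7.25 and 7.91 FPKM at E12.5, in HARE5Hs/Hs cortex and rose by 1.59 ± 0.20 (SE, adjusted p = 0.000127). For WT the values were 20.5, 19.3 and 15.8 FPKM at E14.5, against 9.75, 7.80 and 6.87 FPKM at E12.5, and it rose by 1.22 ± 0.20 (SE, adjusted p = 0.000894). Cntnap2, which gathers Kcna channels beside the node of Ranvier, fell, at −1.16 ± 0.20 (SE, adjusted p = 0.000696) in HARE5Hs/Hs and −0.94 ± 0.20 (SE, adjusted p = 0.0037) in WT. Of 12 tested sodium-potassium pump and HCN genes 6 rose and 2 fell in HARE5Hs/Hs and 5 rose and 2 fell in WT. Over all tested genes 23.7% rose and 22% fell in HARE5Hs/Hs, and 20% rose and 15.2% fell in WT. The share of falls among the 12, 16.7% in each genotype, was near those of all tested genes. The WT count of rises was 3 without E12.5 embryo 2 or 3 or E14.5 embryo 1 or 3. Atp1b3 fell, at −0.57 ± 0.10 (SE, adjusted p = 0.000873) in HARE5Hs/Hs and −0.30 ± 0.10 (SE, adjusted p = 0.0351) in WT, where its adjusted p was 0.0601 to 0.162 without E12.5 embryo 2 or 3 or E14.5 embryo 1 or 2. Hcn3, a hyperpolarisation-activated channel, rose by 0.95 ± 0.16 (SE, adjusted p = 0.000644) in HARE5Hs/Hs and 1.05 ± 0.16 (SE, adjusted p = 0.000619) in WT.

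No Kcn gene passed between genotypes. HARE5Hs/Hs against WT gave 0 Kcn calls and 0 calls among all tested genes (0%) in edgeR at E12.5, at E14.5, averaged over ages and in the genotype by age interaction. At an unadjusted p under 0.05 there were 10 of 73 Kcn genes at E14.5 (11.9% of all tested genes), 1 at E12.5 (2.25%), 8 averaged over ages (9.55%) and 2 in the interaction (5.11%), shares near those of all genes. The DESeq2 Wald test also called 0 Kcn genes in these 4 comparisons, with 37 genes in all at E14.5 and 1 in the interaction. In size, 57 of the 73 stood higher in HARE5Hs/Hs than in WT at E14.5, with a median of 0.43 against −0.01 over all tested genes. That count was 51 of 74 without HARE5Hs/Hs embryo 2 and 61 of 74 without WT embryo 1. At E12.5, 43 of 73 stood higher, with a median of 0.04. Without E12.5 HARE5Hs/Hs embryo 1, 29 of 74 stood higher (median −0.06), and without E12.5 WT embryo 1, 51 of 74 (median 0.20). The share of all tested genes that stood higher was not taken at either age. The E14.5 median was 0.26 without HARE5Hs/Hs embryo 3, 0.35 without embryo 2 and 0.46 without embryo 1. Neuron markers stood beside this, with all 12 higher in HARE5Hs/Hs at E14.5 (median 0.43) and 0 of them passing. Interneuron markers, erythroid genes and meninges and mesenchyme markers differed by more at E14.5, again with 0 genes passing. Medians of the remaining cell type lists ran from −0.31 (pericytes) to 0.26 (choroid plexus). All 9 interneuron markers were higher in HARE5Hs/Hs (median 1.55), with summed levels of 70.0, 152 and 118 CPM in HARE5Hs/Hs embryos, against 47.2, 44.5 and 25.8 CPM in WT embryos. All 7 tested erythroid genes were higher in HARE5Hs/Hs (median 1.70, 7 with an unadjusted p under 0.05), with sums of 2502, 5724 and 4411 CPM in HARE5Hs/Hs embryos, against 2234, 736 and 1512 CPM in WT embryos. All 8 meninges and mesenchyme markers were lower in HARE5Hs/Hs (median −1.17), with sums of 417, 141 and 10.7 CPM in HARE5Hs/Hs embryos, against 401, 87.2 and 806 CPM in WT embryos. The HARE5Hs/Hs and WT sums did not overlap for interneuron markers and erythroid genes and overlapped for meninges and mesenchyme markers. At E12.5 the interneuron median was 1.59, with 8 of 9 markers higher in HARE5Hs/Hs and 0 passing. The part of these lists in the Kcn median was not tested. All 3 HARE5Hs/Hs embryos were above all 3 WT embryos at E14.5 for 14 Kcn genes and below for 4, where 9.48% and 8.93% of all tested genes were so placed. At E12.5 these counts were 2 and 3, against 3.34% and 3.81%.

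The Kcn genes with the smallest genotype p at E14.5 are given as values that did not pass. Kcnc4 was at 0.670, 0.648 and 0.488 FPKM in HARE5Hs/Hs embryos, against 0.0467, 0 and 0.0696 FPKM in WT embryos, with 1 WT embryo listed at 0. Every HARE5Hs/Hs embryo was well above every WT embryo, at a level under 1 FPKM in all. The difference was 3.84 ± 0.96 (SE, unadjusted p = 0.00165, adjusted p = 0.342), and the interaction was 4.78 ± 1.28 (SE, unadjusted p = 0.00282, adjusted p = 0.921). At E12.5 Kcnc4 was at 0.195, 0.0975 and 0.0705 FPKM in HARE5Hs/Hs embryos, against 0.508, 0.0414 and 0.156 FPKM in WT embryos, with overlap of the genotypes. Kcnh5 at E14.5 was at 1.69, 2.08 and 3.37 FPKM in HARE5Hs/Hs embryos, against 0.919, 1.01 and 1.03 FPKM in WT embryos, with a difference of 1.24 ± 0.36 (SE, unadjusted p = 0.00481, adjusted p = 0.342). Kcnma1 was at 1.23, 1.79 and 4.48 FPKM in HARE5Hs/Hs embryos, against 0.896, 1.17 and 1.04 FPKM in WT embryos, with a difference of 1.27 ± 0.44 (SE, unadjusted p = 0.013, adjusted p = 0.342), which was 0.56 without HARE5Hs/Hs embryo 3. Kcna6 was at 2.92, 3.56 and 3.34 FPKM in HARE5Hs/Hs embryos, against 2.12, 1.48 and 2.31 FPKM in WT embryos, with a difference of 0.71 ± 0.25 (SE, unadjusted p = 0.0148, adjusted p = 0.342). Kcnq3 was at 11.8, 16.9 and 23.6 FPKM in HARE5Hs/Hs embryos, against 8.86, 8.86 and 6.33 FPKM in WT embryos, with a difference of 1.09 ± 0.39 (SE, unadjusted p = 0.015, adjusted p = 0.342). For Kcnh5, Kcnma1, Kcna6 and Kcnq3 no WT embryo reached the HARE5Hs/Hs range. Averaged over both ages, Kcnq3 stood at 1.02 ± 0.32 (SE, unadjusted p = 0.00711, adjusted p = 0.508), Kcnh5 at 0.86 ± 0.27 (SE, unadjusted p = 0.00798, adjusted p = 0.508), Kcna1 at 0.52 ± 0.18 (SE, unadjusted p = 0.015, adjusted p = 0.508), Kcnc2 at 1.52 ± 0.55 (SE, unadjusted p = 0.0163, adjusted p = 0.508) and Kcnn2 at 0.50 ± 0.19 (SE, unadjusted p = 0.0221, adjusted p = 0.508). Kcnc2 at E14.5 was at 0.177, 0.732 and 1.24 FPKM in HARE5Hs/Hs embryos, against 0.164, 0.187 and 0.141 FPKM in WT embryos, so that embryo 1 lay among the WT values. At E12.5 the smallest p was that of Kcnn2, at 1.55, 1.42 and 2.18 FPKM in HARE5Hs/Hs embryos, against 0.875, 1.26 and 1.08 FPKM in WT embryos, with a difference of 0.67 ± 0.29 (SE, unadjusted p = 0.0383, adjusted p = 1). Kcnd3, Kcnip4, Kcns3 and Kcnq3 followed at E12.5, with differences of 0.52, 3.04, −1.51 and 0.95 and adjusted p of 1 for each. Without E12.5 HARE5Hs/Hs embryo 1 the Kcnd3 difference was 0.085 and that of Kcnq3 0.43, and without HARE5Hs/Hs embryo 2 that of Kcnd3 was 0.80. Without E12.5 WT embryo 1 the Kcnq3 difference was 1.65, and without WT embryo 2 that of Kcnip4 was 4.83. In the interaction, Kcnma1 stood at 1.66 ± 0.65 (SE, unadjusted p = 0.0244, adjusted p = 0.921), Kcnn3 at 0.97, Kcne4 at −2.32 and Kcnk13 at −1.59, with adjusted p of 0.921 for all. The interaction was 0.95 for Kcnma1 without E14.5 HARE5Hs/Hs embryo 3 and −3.84 for Kcne4 without E14.5 HARE5Hs/Hs embryo 2. Under the filter, Kcns1 held 34 counts in E14.5 HARE5Hs/Hs embryos, against 1 in E14.5 WT embryos, and Kcnk12 held 20, against 1. Kcnh6 held 12 counts in E14.5 HARE5Hs/Hs embryos, against 0 in E14.5 WT embryos. In the other direction, E14.5 HARE5Hs/Hs embryos held 0 counts of Kcnmb1, against 6 in E14.5 WT embryos, 1 of Kcng4, against 6, and 0 of Kcnk7, against 4. At E12.5 Kcns1 held 2 counts in HARE5Hs/Hs embryos, against 10 in WT embryos. All these counts are sums over 3 embryos and do not show how they were spread between embryos. With no filter, edgeR tested 90 Kcn genes and called 0 between genotypes at E14.5 and 0 at E12.5.

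**Figure D5:**
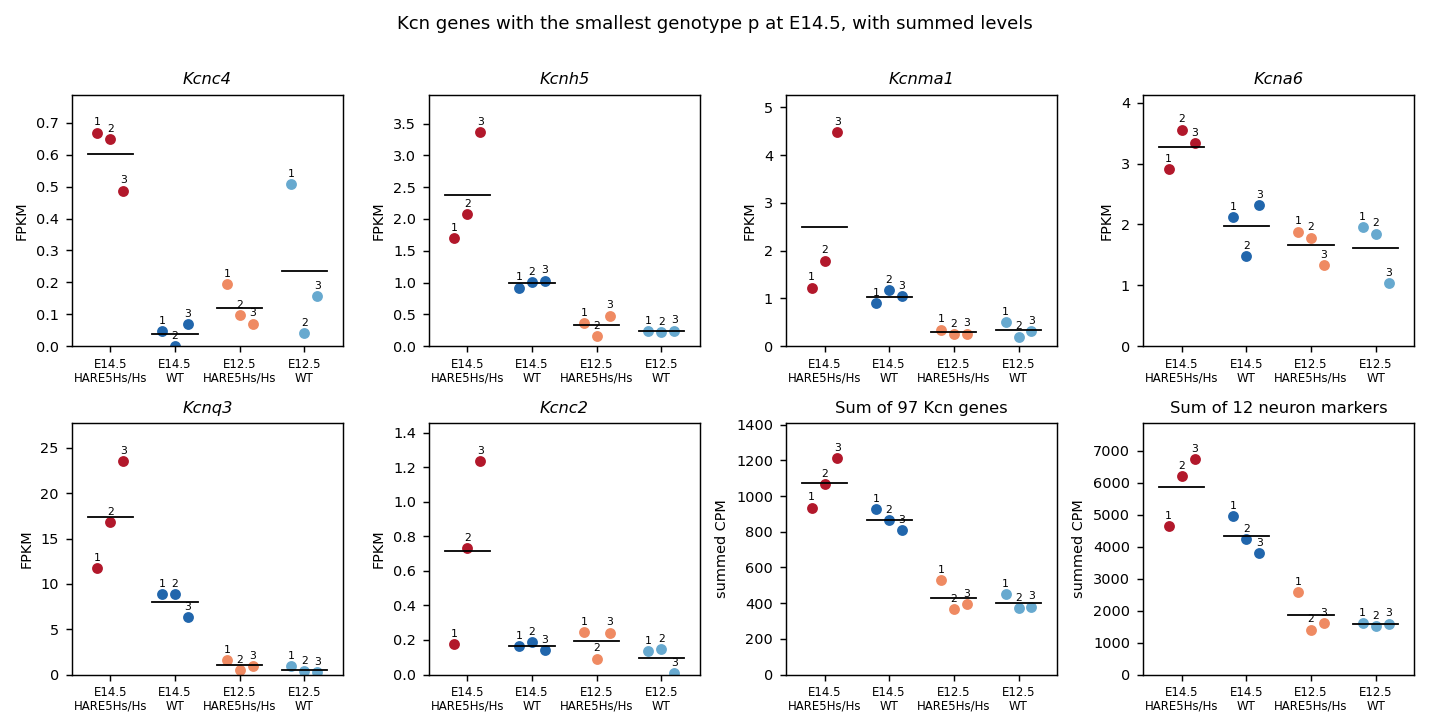
Deposited FPKM per embryo (points, numbered by replicate) with the group mean (line) for 6 Kcn genes, and CPM summed over the 97 Kcn genes and over 12 neuron markers. Of the 6, Kcnc4, Kcnh5, Kcnma1, Kcna6 and Kcnq3 had the smallest genotype p at E14.5. Kcnc2 was among the 5 of smallest genotype p averaged over both ages. None of the 6 passed; in the sums, E14.5 HARE5Hs/Hs embryos 2 and 3 and E12.5 HARE5Hs/Hs embryo 1 lie above all other embryos of their age.

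The age changes of the 73 genes were alike in kind across the genotypes, with the same sign in 64, and 48 were larger in size in HARE5Hs/Hs. The counts of 64 and 48 were not taken over all tested genes or with single libraries left out. Without E14.5 HARE5Hs/Hs embryo 3, Kcn calls with age in HARE5Hs/Hs numbered 31, against 44 with it. No Kcn gene passed in the interaction. The genotypes have separate E12.5 and E14.5 embryos, and r across the 73 genes was 0.836, a description over genes that share libraries and are not independent. In the authors' deposited table for HARE5Hs/Hs, 38 Kcn genes have a higher and 7 a lower level at E14.5 at an adjusted p under 0.05, of 81 with a value, and 41 of them had a call of the same sign in the present test. In the authors' deposited table for WT the counts are 30 and 6 of 83, with 31 so shared.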

How the data were processed

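Libraries were made from the cortex of single embryos with a stranded mRNA kit, per the labels' protocols. STAR, DESeq2 and the mm39 genome build are named per the submitters' processing notes, while for the counting tool, its strand setting and all versions the entry is: not given in the sources used here. Each of the 2 deposited tables holds estimated counts, written as whole numbers, and FPKM values made by the authors. Each also holds the authors' DESeq2 log2 fold change and p-value for its age comparison. In both, 12 columns of 6 libraries matched no sample and were not used.

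Counts were tested in R 4.3.3 with edgeR 4.0.16 (limma 3.58.1): filterByExpr with a minimum count of 10, TMM scaling, 4 group means over 12 libraries, glmQLFit and glmQLFTest, with Benjamini-Hochberg adjustment over all 14311 tested genes and a threshold of 0.05. The SE is the size of the log2 fold change divided by the square root of F. The code was tested on simulated data. Alternatives were DESeq2 1.42.0, its size factors in edgeR, other filters, only the libraries compared, a replicate block and leaving out each library. Counting intervals are exact at 95% and cover counting error only. For a group at 0 the fold is given with 3 counts put for the 0. It takes the other count as exact and is not a 95% bound.

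The genes and lists were chosen with earlier results of these data known. Values per embryo are given for the 2 genes of smallest age p and the gene of highest FPKM in each subfamily, for falls of at least 2-fold, and for the 5 genes of smallest p in each genotype comparison. Values of further Kcn genes were added after they had been seen. Promoter windows are those of RefSeq on GRCm38.p6, and gene order is from the same assembly. Some genes are not reported here.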

Additional observations from a re-analysis of the deposited data

How the results depend on the processing

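Under the settings that kept all libraries, the counts of Kcn genes called in each direction stayed within 1.5 times of those reported. The counts that moved further were small. Channel partners that fell in WT numbered 2 with DESeq2 and with only the libraries compared, against 1, and those that fell in HARE5Hs/Hs numbered 2 with the replicate block, against 1. Pump and HCN genes that fell in WT numbered 1 with only the libraries compared and with the replicate block, against 2. Correlations of same-numbered embryos of the 2 genotypes were 0.0963, 0.336 and 0.124 at E12.5 and −0.112, −0.144 and −0.443 at E14.5. At E12.5 the second principal component also ran alike by number, at 7.78, −20.4 and 0.179 in HARE5Hs/Hs and 8.34, −25.2 and 0.446 in WT. The labels state no pairing, so the main test treated embryos as unpaired. Whether same-numbered E12.5 embryos share a litter or batch was not tested. With the replicate block 40 Kcn genes were called in HARE5Hs/Hs and 31 in WT, against 44 and 31. DESeq2 called 48 in HARE5Hs/Hs and 34 in WT.

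Leaving out 1 library gave 27 to 37 Kcn rises and 3 to 5 falls in HARE5Hs/Hs, and 22 to 26 rises and 2 to 4 falls in WT. It gave 1 to 2 falls of channel partners in HARE5Hs/Hs, and 3 to 5 rises and 1 to 2 falls of pump and HCN genes in WT. Among the named genes 7 changes took the other sign when 1 library was left out, none of them a call: the range was −0.58 to 0.48 for Kcnab1 in WT, −0.034 to 0.27 for Kcnab2 in HARE5Hs/Hs, −0.40 to 0.0082 for Kcnmb2 in HARE5Hs/Hs and −0.074 to 0.71 for Kcnf1 in HARE5Hs/Hs. The causes were not tested. With 3 embryos a group, genes of few counts are the least certain.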
